A study of Mus musculus with 37 samples.

Results

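The genes described here are 36 members of the unfolded protein response and of the protein folding machinery of the endoplasmic reticulum, followed across 37 RNA-seq libraries of mouse leukaemic pre-B cells. They were taken by gene name from a fixed list of members; each name matched 1 row of the count files, which hold 35290 genes in all. All 36 were among the 15699 genes tested. The cells were pre-B cells from bone marrow of adult C57BL/6 mice that lack Arf (Arf-/-) and were transformed with BCR-ABL1, a fusion tyrosine kinase of acute lymphoblastic leukaemia. They carried either MIG, an empty vector that expresses GFP, or MIG-IK6, which expresses IK6, a dominant-negative form of the lymphoid transcription factor IKAROS. Each line received DMSO, the solvent, or 1 µM of ATRA (all-trans retinoic acid, which binds retinoic acid receptors), bexarotene (a man-made retinoid that binds retinoid X receptors), carbacyclin (a prostacyclin analogue) or NOE (N-oleoylethanolamine, a lipid amide). All 10 groups therefore share the Arf-/- genotype, BCR-ABL1 and exposure to DMSO. There were 4 libraries in a group, and 3 in MIG with bexarotene, IK6 with bexarotene and IK6 with carbacyclin. How long the cells were treated is not stated in the labels. Nothing there says that replicates were grown separately, so the p-values cover only library-to-library spread, which may be technical. A difference between the vectors cannot be told apart from any other difference between the transduced populations.

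The endoplasmic reticulum (ER) is where secreted and membrane proteins are folded, and unfolded protein there is sensed by the membrane proteins IRE1, ATF6 and PERK. Active IRE1 splices the mRNA of Xbp1 into the form that encodes the active transcription factor, and cleaved ATF6 enters the nucleus. Both factors raise genes for chaperones, disulfide isomerases, protein translocation and ER-associated degradation, the route by which misfolded proteins are pulled back to the cytosol and destroyed by the proteasome. In B-lineage cells this programme is best known from plasma cell differentiation, where XBP1 expands the secretory apparatus. Counts per gene do not separate the spliced from the unspliced form of Xbp1, nor show protein or cleavage of ATF6.

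The promoters of several members hold the DNA elements through which these factors are known to act, and a few are shown because their genes recur in the results further on. Of the 36 genes, 30 have an entry in the RefSeq promoter table (build GRCm38.p6, 250 bases before to 50 bases after each start), which holds 27025 genes. The stretches surround the match, run 5′ to 3′ on the strand of the gene, and have the match in capitals.
Hspa5 (chr2:34771995-34772073, plus strand), ERSE: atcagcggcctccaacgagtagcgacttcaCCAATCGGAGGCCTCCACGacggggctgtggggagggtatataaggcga
Calr (chr8:84847045-84847123, minus strand), ERSE: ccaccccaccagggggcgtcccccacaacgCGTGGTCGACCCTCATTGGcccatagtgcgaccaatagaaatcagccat
Derl3 (chr10:75893212-75893290, plus strand), ERSE: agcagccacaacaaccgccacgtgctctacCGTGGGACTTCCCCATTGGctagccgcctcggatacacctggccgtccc
Creld2 (chr15:88819490-88819568, plus strand), ERSE: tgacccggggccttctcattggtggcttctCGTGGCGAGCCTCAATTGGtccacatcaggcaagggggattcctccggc
Syvn1 (chr19:6046502-6046575, plus strand), ERSE: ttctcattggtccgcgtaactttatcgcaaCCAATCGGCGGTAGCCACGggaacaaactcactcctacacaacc
Herpud1 (chr8:94386347-94386417, plus strand), ERSE-II: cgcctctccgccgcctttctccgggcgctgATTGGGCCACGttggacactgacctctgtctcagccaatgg
Sec24d (chr3:123267440-123267495, plus strand), UPRE: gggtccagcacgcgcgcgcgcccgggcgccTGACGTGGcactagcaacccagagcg
The ER stress response element (ERSE) was searched as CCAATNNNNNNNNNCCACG, ERSE-II as ATTGGNCCACG and the unfolded protein response element (UPRE) as TGACGTGG, each on both strands. No member's promoter held more than 1 of the 3, although both ERSE forms end in CCACG. In Calr, Derl3 and Creld2 the element lies on the other strand and is read from the right. ERSE was present in 9 of the 30 members with a promoter entry, against 37 of 27025 genes (0.137%). These 9 were Calr, Canx, Creld2, Derl3, Dnajc3, Hsp90b1, Hspa5, Pdia6 and Syvn1. ERSE-II was present in Dnajb11 and Herpud1 and in 0.0444% of all genes. UPRE was present in Sec24d and Txndc11 and in 0.714% of all genes. Together the 3 elements occurred in 13 of the 30 members (43.3%) and in 0.884% of all genes. The CCAAT box, which is also the first part of ERSE, occurred in 23 of the 30 and in 41.1% of all genes. A match is a description of the sequence and no test of binding. The members were listed as genes of this response, so a greater share of these elements than among all genes is no independent result.

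Total counts ran from 16478899 to 80388667 per library. Levels are given as CPM, counts per 1000000 on library sizes with TMM scaling (trimmed mean of M values). Pre-B markers were expressed in every library (14 genes, summed level 4354 to 9579 CPM). The sum of 6 plasma cell markers was 202 to 748 CPM, mostly Xbp1 itself (188 to 731 CPM). Of the other 5, Sdc1 reached 13.8 CPM, Slamf7 10.7, Prdm1 1.36, Igj 1.22 and Tnfrsf17 0.0680. The group mean of the pre-B sum ran from 4485 CPM (IK6, DMSO) to 7492 CPM (MIG, carbacyclin), and its part in the results was not tested. Of 8 myeloid markers S100a8 and S100a9 were at 0 everywhere and the sum stayed at or below 20.6 CPM; the T cell sum of 66.6 to 259 CPM was almost all Lck. The erythroid sum was 1.56 to 37.8 CPM. The stromal and endothelial sum was 46.6 to 117 CPM, nearly all from Pecam1. Ikzf1, the gene that encodes IKAROS, was higher in IK6 (424 ± 10.7 CPM in DMSO) than in MIG (264 ± 6.07 CPM, SD, n = 4 each). IK6 is itself a form of IKAROS, so reads from the vector may count toward Ikzf1 and cannot be told apart from those of the cells' own gene. In 3 MIG libraries ribosomal protein genes took over 12% of the counts: DMSO replicate 3 (15.7%), carbacyclin replicate 4 (15.8%) and bexarotene replicate 3 (12.7%), against 7.48 to 11.7% in the other 34. Without these 3 libraries 12 of the 276 calls made on members over all comparisons were lost, 58 were gained and none reversed. The 12 lost are named beside the comparison they belong to. In these bulk samples fewer cells of a type and less RNA per cell cannot be told apart.

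Calr, Canx, Hspa5 and Hsp90b1, all chaperones, had the highest levels per length among the 36 genes, while the other 7 chaperones stood at ranks 14 to 29 in MIG with DMSO. Per kilobase of exon in MIG with DMSO, the mean level was 178 CPM for Calr (ENSMUSG00000003814), 139 for Canx (ENSMUSG00000020368), 135 for Hspa5 (ENSMUSG00000026864) and 119 for Hsp90b1 (ENSMUSG00000020048). Pdia3 (ENSMUSG00000027248) followed with 111 CPM per kilobase and Xbp1 (ENSMUSG00000020484) with 95.7. The membrane sensors were lower, at 15.6 CPM per kilobase for Atf6 (ENSMUSG00000026663) and 7.18 for Ern1 (ENSMUSG00000020715). At the bottom of the same scale stood Creb3l2 (1.30), Derl3 (1.18), Sec24d (0.993) and Pdia5 (0.0786). Added together, the 36 genes took 0.574% ± 0.0142 of all counts in MIG with DMSO and 0.664% ± 0.00569 in IK6 with DMSO (SD, n = 4 each). The smallest share was 0.529% ± 0.0251 in MIG with NOE (n = 4), and the greatest was 0.842% ± 0.00981 in IK6 with bexarotene (n = 3). The heat map of every library shows these group differences beside the spread of replicates.

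**Figure D1:**
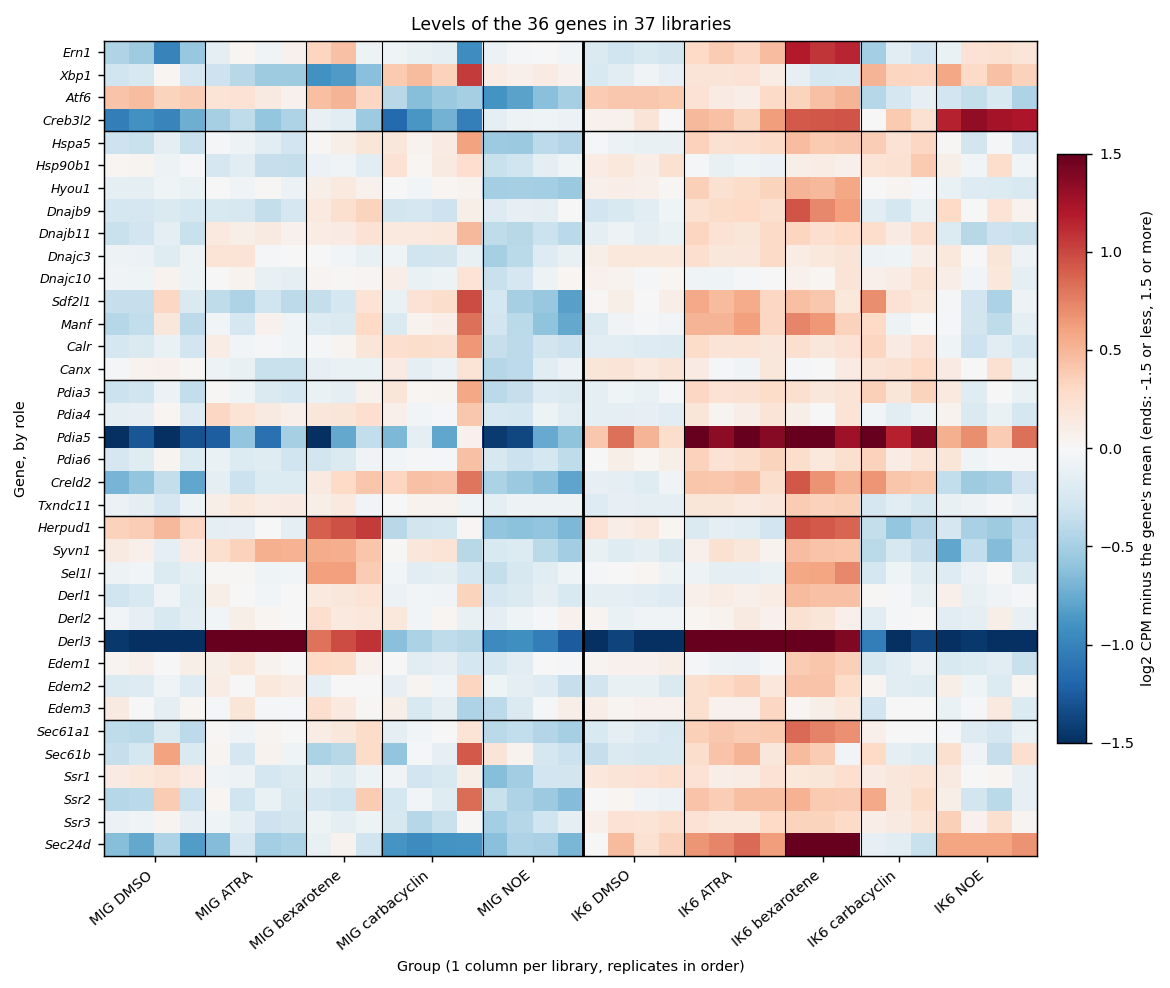
Level of each of the 36 genes (rows, ordered by role from sensors at the top to translocation and export at the bottom) in each of 37 libraries (columns, by group), as log2 CPM minus the gene's own mean over the libraries. Derl3 is dark red in the ATRA and bexarotene columns of both vectors, Sec24d and Ern1 are reddest in IK6 with bexarotene, and the last carbacyclin column of MIG, a library of high ribosomal protein share, differs from its 3 neighbours in many rows.

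Both retinoids raised more of these genes than they lowered. With ATRA in MIG, 15 members rose and 6 fell, where 20.6% of all tested genes rose and 21.2% fell. With ATRA in IK6, 24 rose and 3 fell (all genes 22.7% and 20.9%). With bexarotene in MIG, 19 rose and 2 fell (all genes 19.9% and 18.2%), and with bexarotene in IK6, 23 rose and none fell (all genes 22.3% and 19.4%). A gene is called here at a Benjamini-Hochberg adjusted p under 0.05 in edgeR's quasi-likelihood test over 15699 genes. The median log2 change of the 36 genes was 0.14 with ATRA in MIG, 0.32 with ATRA in IK6, 0.22 with bexarotene in MIG and 0.46 with bexarotene in IK6, while the median of all genes stayed within 0.035 of 0 in each of the 19 comparisons made. Of the calls, 15 of 21, 21 of 27, 19 of 21 and 20 of 23 held under every alternative tried. Without the 3 libraries of high ribosomal protein share 18 rose and 6 fell with ATRA in MIG, and 19 rose and 2 fell with bexarotene in MIG. The calls for Derl2 and Pdia5 with ATRA in MIG were then lost (adjusted p = 0.0707 and 0.0727). In both vectors and with both retinoids 11 members rose: Ern1, Creb3l2, Dnajb11, Calr, Pdia4, Creld2, Txndc11, Syvn1, Derl1, Derl3 and Sec61a1. The share of all tested genes that rose in all 4 comparisons is not given here, so this joint count has no background to be read against. The 4 comparisons share the DMSO libraries of their vector, so their calls are not independent of each other.

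**Figure D2:**
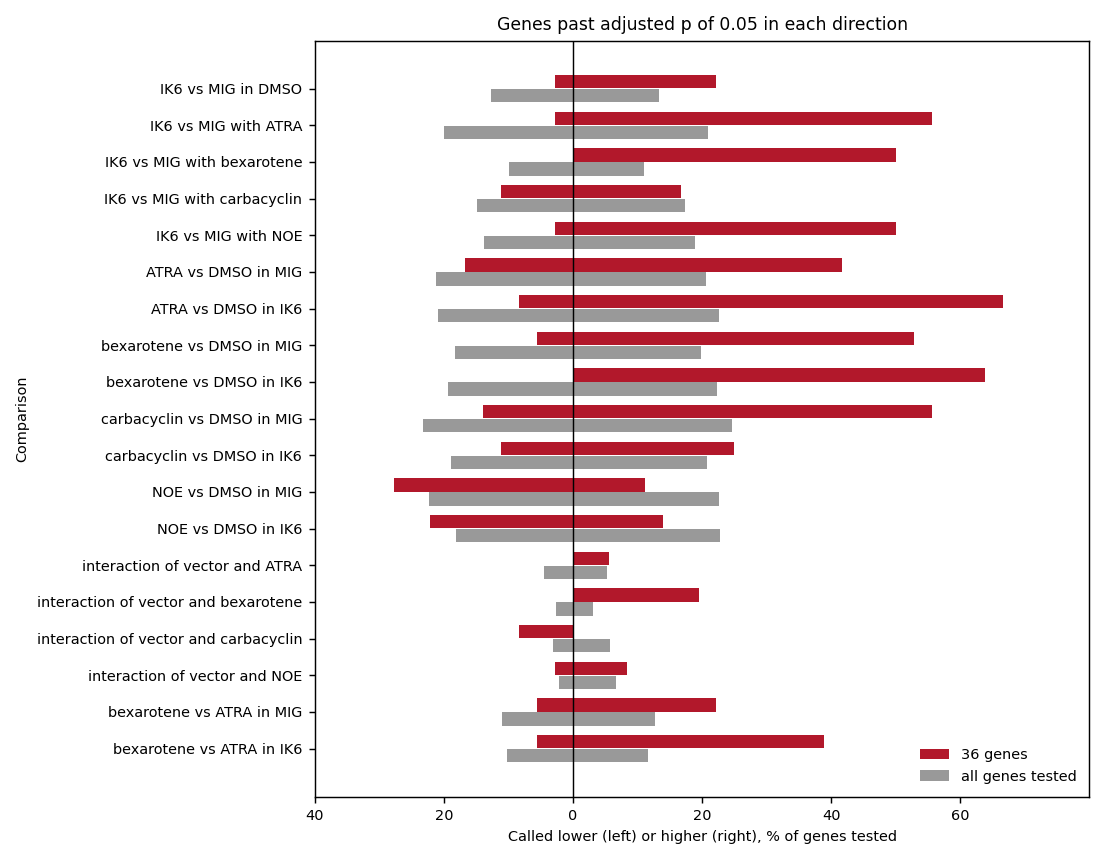
Share of genes called higher (right of 0) or lower (left of 0) in each of 19 comparisons, in percent, for the 36 genes (red) and for all 15699 genes tested (grey). The red bars reach furthest to the right for ATRA and bexarotene in IK6 (66.7% and 63.9%), and only for NOE against DMSO do they reach further left than right among the comparisons with DMSO.

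Derl3 (ENSMUSG00000009092), a derlin of the ER membrane that takes part in the retrotranslocation of misfolded proteins, changed most among the members. In MIG with DMSO its libraries read 2.66, 2.20, 2.04 and 2.54 CPM, and with ATRA 48.9, 43.6, 50.6 and 55.7 CPM. With bexarotene in MIG they read 12.9, 14.3 and 15.4 CPM. All treated libraries lay above all controls, and those with ATRA above those with bexarotene. The log2 change was 4.39 ± 0.11 with ATRA (± SE here and for all log2 changes; 21.0-fold, adjusted p = 2.38e-25) and 2.59 ± 0.11 with bexarotene (6.02-fold, adjusted p = 2.62e-18). In IK6 the DMSO libraries read 2.13, 2.79, 2.17 and 2.55 CPM, those with ATRA 42.9, 49.6, 49.4 and 40.9 CPM and those with bexarotene 22.0, 21.0 and 19.1 CPM. The same order of the treatments held in IK6, again without overlap. There the log2 change was 4.25 ± 0.11 with ATRA (adjusted p = 3.91e-25) and 3.10 ± 0.11 with bexarotene (adjusted p = 1.37e-20). The other derlins moved far less: Derl1 (ENSMUSG00000022365) rose by 0.20 and 0.25 log2 units with ATRA and by 0.37 and 0.61 with bexarotene, in MIG and IK6. Derl2 (ENSMUSG00000018442) rose by 0.33 with bexarotene in MIG and had changes of 0.20 in IK6, 0.16 with ATRA in MIG and 0.11 with ATRA in IK6. The call in IK6 with bexarotene was lost without IK6 bexarotene replicate 1 (adjusted p = 0.0857). The call with ATRA in MIG was lost without MIG DMSO replicate 3 (0.107), MIG DMSO replicate 4 (0.0647), MIG ATRA replicate 2 (0.0899) or MIG ATRA replicate 3 (0.055) (adjusted p in parentheses), and the last change did not pass.

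Herpud1 (ENSMUSG00000031770), an ER membrane protein that organises the HRD1 ubiquitin ligase complex, went in opposite directions with the retinoids. The MIG libraries read 152, 155, 169 and 149 CPM in DMSO, 109, 109.9, 119 and 109 CPM with ATRA and 223, 233 and 249 CPM with bexarotene. Every ATRA library lay below, and every bexarotene library above, all DMSO libraries. The log2 change was -0.48 ± 0.069 with ATRA (adjusted p = 6.91e-07) and 0.59 ± 0.074 with bexarotene (adjusted p = 8.53e-08). The IK6 libraries read 139.8, 129, 132 and 123 CPM in DMSO, 103, 108, 107 and 98.1 CPM with ATRA and 232, 227 and 219 CPM with bexarotene. The groups kept that order in IK6 and did not overlap. The log2 change was -0.33 ± 0.069 with ATRA (adjusted p = 0.000203) and 0.79 ± 0.074 with bexarotene (adjusted p = 1.82e-10).

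Of the 9 degradation genes 7 rose with bexarotene in MIG and 8 in IK6, and none fell (all genes 19.9% and 22.3% up, 18.2% and 19.4% down). Sel1l (ENSMUSG00000020964), the adaptor of HRD1, read 107, 110.0, 98.0 and 103 CPM in MIG with DMSO, 114, 114, 109 and 110.1 CPM with ATRA and 173, 173 and 147 CPM with bexarotene. Its bexarotene libraries lay above all others of MIG, whereas those with ATRA overlapped the top of the DMSO range. The log2 change with bexarotene was 0.65 ± 0.068 in MIG (adjusted p = 1.93e-09) and 0.65 ± 0.067 in IK6 (adjusted p = 1.53e-09). With ATRA the changes of 0.10 and -0.10 did not pass (adjusted p = 0.237 and 0.226). Syvn1 (ENSMUSG00000024807), the ubiquitin ligase HRD1 itself, rose by 0.36 with ATRA in MIG, and by 0.45 and 0.60 with bexarotene in MIG and IK6. Its change of 0.30 with ATRA in IK6 passed (adjusted p = 0.0168), but not without IK6 ATRA replicate 2 (0.0562). The EDEM proteins are mannosidase-like factors that mark glycoproteins for degradation. Edem1 (ENSMUSG00000030104) rose by 0.32 with bexarotene in IK6. In MIG its change of 0.17 passed (adjusted p = 0.0352), but not with the replicate number as a block (adjusted p = 0.059), nor without MIG DMSO replicate 1 (0.0891), MIG DMSO replicate 2 (0.0616), MIG DMSO replicate 3 (0.148), MIG DMSO replicate 4 (0.06), MIG bexarotene replicate 1 (0.188) or MIG bexarotene replicate 2 (0.16) (adjusted p in parentheses). Edem2 (ENSMUSG00000038312) rose by 0.26 and 0.44 with ATRA in MIG and IK6 and by 0.55 with bexarotene in IK6, with 0.11 in MIG that did not pass. Edem3 (ENSMUSG00000043019) was called in none of the 19 comparisons, with group means from 55.1 to 70.3 CPM.

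Among the sensors and factors, Ern1, which encodes IRE1, and Creb3l2 (ENSMUSG00000038648), an ER-membrane factor activated by cleavage like ATF6, rose with both retinoids. Ern1 read 66.1, 62.4, 45.3 and 61.1 CPM in MIG with DMSO, 81.7, 92.6, 87.0 and 94.4 CPM with ATRA and 113, 123 and 86.1 CPM with bexarotene. DMSO replicate 3 and bexarotene replicate 3, both of high ribosomal protein share, were the lowest of their groups, and no treated library fell to the level of DMSO. In IK6 it read 77.9, 73.4, 77.2 and 75 CPM with DMSO, 111, 118, 112 and 125 CPM with ATRA and 207, 191 and 199.7 CPM with bexarotene. The IK6 groups were well apart from each other. Log2 changes were 0.60 ± 0.13 and 0.62 ± 0.13 with ATRA in MIG and IK6 (adjusted p = 0.000255 and 0.00015). With bexarotene they were 0.87 ± 0.14 and 1.39 ± 0.14 (adjusted p = 4.09e-06 and 4.52e-10). Creb3l2 rose by 0.44 and 0.39 with ATRA, and by 0.65 and 0.85 with bexarotene, from a DMSO mean of 9.5 CPM in MIG and 18.9 CPM in IK6.

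Xbp1 and Atf6 encode the transcription factors of the response. With the retinoids Xbp1 rose in 1 comparison, ATRA in IK6, and Atf6 in none. Xbp1 read 287, 299, 360.4 and 296 CPM in MIG with DMSO, 284, 264, 244 and 243 CPM with ATRA and 188, 196 and 228 CPM with bexarotene. All 3 bexarotene libraries lay below every DMSO library, and so, by a small margin, did those with ATRA. The fall with bexarotene was -0.61 ± 0.11 (adjusted p = 5.75e-05). The change of -0.27 ± 0.10 with ATRA passed (adjusted p = 0.0383), but not without MIG DMSO replicate 3 (0.166), MIG ATRA replicate 2 (0.058), MIG ATRA replicate 3 (0.0992) or MIG ATRA replicate 4 (0.102) (adjusted p in parentheses). In IK6 Xbp1 read 300.01, 313, 341 and 324 CPM with DMSO, 402, 402, 409 and 381 CPM with ATRA and 323, 293 and 297 CPM with bexarotene. In this line every ATRA library was above every DMSO library and the bexarotene libraries overlapped DMSO. The rise with ATRA was 0.32 ± 0.10 (adjusted p = 0.0123), and the change of -0.070 ± 0.11 with bexarotene did not pass (adjusted p = 0.647, 95% interval -0.30 to 0.16). Atf6 fell by 0.24 on the log2 scale with ATRA in MIG (adjusted p = 0.00673). In IK6 its change of -0.21 with ATRA passed (adjusted p = 0.0168), but not without IK6 ATRA replicate 2 (0.0556) or IK6 ATRA replicate 3 (0.0598). With bexarotene its change was 0.025 ± 0.078 in MIG and 0.034 ± 0.078 in IK6, neither past the test.

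The chaperones rose in part. Hspa5 (BiP, the Hsp70 of the ER that also holds the sensors inactive) read 557, 552, 628 and 551 CPM in MIG with DMSO, 677, 656, 617 and 567 CPM with ATRA and 703, 737 and 789 CPM with bexarotene. The bexarotene libraries were above all DMSO libraries, while the ATRA libraries overlapped them. Its log2 change with bexarotene was 0.38 ± 0.095 in MIG (adjusted p = 0.00169) and 0.50 ± 0.094 in IK6 (adjusted p = 5.94e-05). With ATRA it was 0.14 ± 0.088 in MIG, short of the threshold (adjusted p = 0.219), and 0.36 ± 0.088 in IK6 (adjusted p = 0.00119). Without the 3 libraries of high ribosomal protein share the ATRA value in MIG was 0.19 and passed (adjusted p = 0.0234). Its relatives Hyou1 (ENSMUSG00000032115), an exchange factor of BiP, and the J-domain protein Dnajb9 (ENSMUSG00000014905, ERdj4), which recruits BiP to IRE1, rose with bexarotene. For Dnajb9 the libraries read 20.0, 20.2, 20.7 and 19.9 CPM in MIG with DMSO and 26.7, 28.3 and 30.3 CPM with bexarotene, and in IK6 19.6, 20.5, 21.6 and 23.1 CPM and 46.1, 39.6 and 36.8 CPM. The groups did not overlap in either line. The rises were 0.49 ± 0.083 in MIG and 0.95 ± 0.082 in IK6 (adjusted p = 1.31e-05 and 3.86e-11). With ATRA Dnajb9 rose in IK6 (0.44), and its change of -0.014 in MIG did not pass. Hyou1 rose by 0.21 and 0.46 with bexarotene and by 0.24 with ATRA in IK6. Dnajb11 (ENSMUSG00000004460, ERdj3), whose ERSE-II lies after the start site, rose by 0.38, 0.37, 0.42 and 0.41 in the 4 comparisons, nearly the same each time. Calr, a lectin chaperone for glycoproteins, rose by 0.39 with ATRA in IK6 and by 0.29 and 0.39 with bexarotene. With ATRA in MIG its change of 0.21 passed, but not without MIG ATRA replicate 1 (adjusted p = 0.064).

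Other chaperones followed in part or not at all. Hsp90b1 (GRP94, the Hsp90 of the ER) fell with ATRA, with log2 changes of -0.27 in MIG and -0.22 in IK6 (adjusted p = 0.00167 and 0.00843). With bexarotene its changes of -0.10 and -0.061 did not pass. Canx (calnexin, the membrane-bound partner of calreticulin) changed by -0.24 with ATRA in MIG, a call lost without MIG ATRA replicate 3 (0.0744) or MIG ATRA replicate 4 (0.0755) (adjusted p in parentheses). Its other 3 retinoid values ran from -0.15 to -0.12 and did not pass. Dnajc10 (ENSMUSG00000027006, the disulfide reductase ERdj5) was called in none of the 19 comparisons. Dnajc3 (ENSMUSG00000022136, P58IPK, an inhibitor of PERK) passed with ATRA in MIG (0.21), though not without MIG DMSO replicate 3 (0.0509), MIG ATRA replicate 1 (0.0623) or MIG ATRA replicate 2 (0.0612) (adjusted p in parentheses), and in no other retinoid comparison (0.014 to 0.079). Manf (ENSMUSG00000032575), a secreted stress protein, rose in IK6 by 0.57 with ATRA and 0.67 with bexarotene. Sdf2l1 (ENSMUSG00000022769), a partner of ERdj3, passed with ATRA in IK6 (0.42, adjusted p = 0.0408), a call that leaving out 1 library ended in 7 of 8 cases, all but IK6 ATRA replicate 4. In MIG with DMSO, replicate 3, of high ribosomal protein share, stood apart for both genes. Manf read 85.4, 89.3, 129.5 and 87.9 CPM there and Sdf2l1 36.5, 36.7, 57.8 and 39.9 CPM.

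Of the disulfide isomerases and their relatives, Creld2 (ENSMUSG00000023272), a stress-induced protein with thiol-exchange motifs, rose with both retinoids. Its libraries read 14.2, 15.3, 17.9 and 13.4 CPM in MIG with DMSO, 21.0, 18.5, 19.9 and 20.0 CPM with ATRA and 25.2, 28.2 and 30.7 CPM with bexarotene. The 3 groups followed each other without overlap, DMSO lowest. The rise was 0.89 ± 0.11 in MIG and 0.84 ± 0.10 in IK6 with bexarotene, and 0.38 ± 0.10 and 0.51 ± 0.10 with ATRA (adjusted p at most 0.00252). Pdia4 (ENSMUSG00000025823, ERp72) rose by 0.29 and 0.27 with ATRA and by 0.31 with bexarotene in MIG. In IK6 with bexarotene its 0.23 passed, but not without IK6 bexarotene replicate 1 (0.0528) or IK6 bexarotene replicate 3 (0.135) (adjusted p in parentheses). Pdia3 (ERp57, the partner of the lectin chaperones) rose by 0.34 with ATRA in IK6, and its 0.29 with bexarotene in IK6 passed, but not without IK6 bexarotene replicate 1 (adjusted p = 0.0638). Pdia6 (ENSMUSG00000020571, P5) passed in 1 of the 4 comparisons, ATRA in IK6 (0.24), and not without IK6 DMSO replicate 1 (0.0512) or IK6 ATRA replicate 1 (0.0512). Txndc11 (ENSMUSG00000022498), a thioredoxin-domain protein that works with EDEM proteins, rose by 0.26 and 0.32 with ATRA and by 0.20 and 0.51 with bexarotene. Pdia5 (ENSMUSG00000022844, PDIR) was close to the limit of detection in MIG, with 30 counts in all over 4 DMSO libraries, and rose in IK6 by 0.95 with ATRA and 0.95 with bexarotene. In MIG its 0.78 with ATRA passed (adjusted p = 0.0448), but not without MIG DMSO replicate 1 (0.153), MIG DMSO replicate 3 (0.0812), MIG ATRA replicate 2 (0.121) or MIG ATRA replicate 4 (0.169) (adjusted p in parentheses), and its 0.74 with bexarotene did not pass.

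Genes of translocation into the ER and export from it were split. Sec61a1 (ENSMUSG00000030082), the pore of the translocon, rose by 0.35 and 0.58 with ATRA and by 0.53 and 0.96 with bexarotene, from DMSO levels of 149 ± 9.74 CPM (MIG) and 165 ± 5.43 CPM (IK6; SD, n = 4). Sec24d (ENSMUSG00000039234), a cargo adaptor of the COPII coat of vesicles that leave the ER, read 9.97, 13.8, 11.6 and 12.6 CPM in IK6 with DMSO, 15.8, 16.5, 18 and 15.4 CPM with ATRA and 34.7, 32.2 and 29.8 CPM with bexarotene. The 3 groups did not overlap and bexarotene stood far above the others. Its rise was 0.45 ± 0.090 with ATRA and 1.42 ± 0.10 with bexarotene (2.68-fold, adjusted p = 9.87e-14). In MIG it rose by 0.57 ± 0.10 with bexarotene, and its 0.21 ± 0.10 with ATRA did not pass (adjusted p = 0.0957). The translocon-associated subunits Ssr1 (ENSMUSG00000021427), Ssr2 (ENSMUSG00000041355) and Ssr3 (ENSMUSG00000027828) followed no common course. Ssr1 fell in MIG by 0.30 on the log2 scale with ATRA and by 0.27 with bexarotene, and Ssr3 was called with neither retinoid. Ssr2 passed with ATRA in IK6 (0.45, adjusted p = 0.0423), and that call was lost whichever of the 8 libraries was left out (adjusted p from 0.059 to 0.0875). Ssr2 shares 12.8% of its exonic bases with an annotated pseudogene, and how reads in the shared bases were counted is not stated. Sec61b (ENSMUSG00000053317), the small beta subunit, passed with ATRA in IK6 (0.60, SE 0.22), but not without IK6 DMSO replicate 1 (0.0651), IK6 DMSO replicate 3 (0.0514), IK6 DMSO replicate 4 (0.0504), IK6 ATRA replicate 2 (0.0624) or IK6 ATRA replicate 3 (0.0749) (adjusted p in parentheses).

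**Figure D3:**
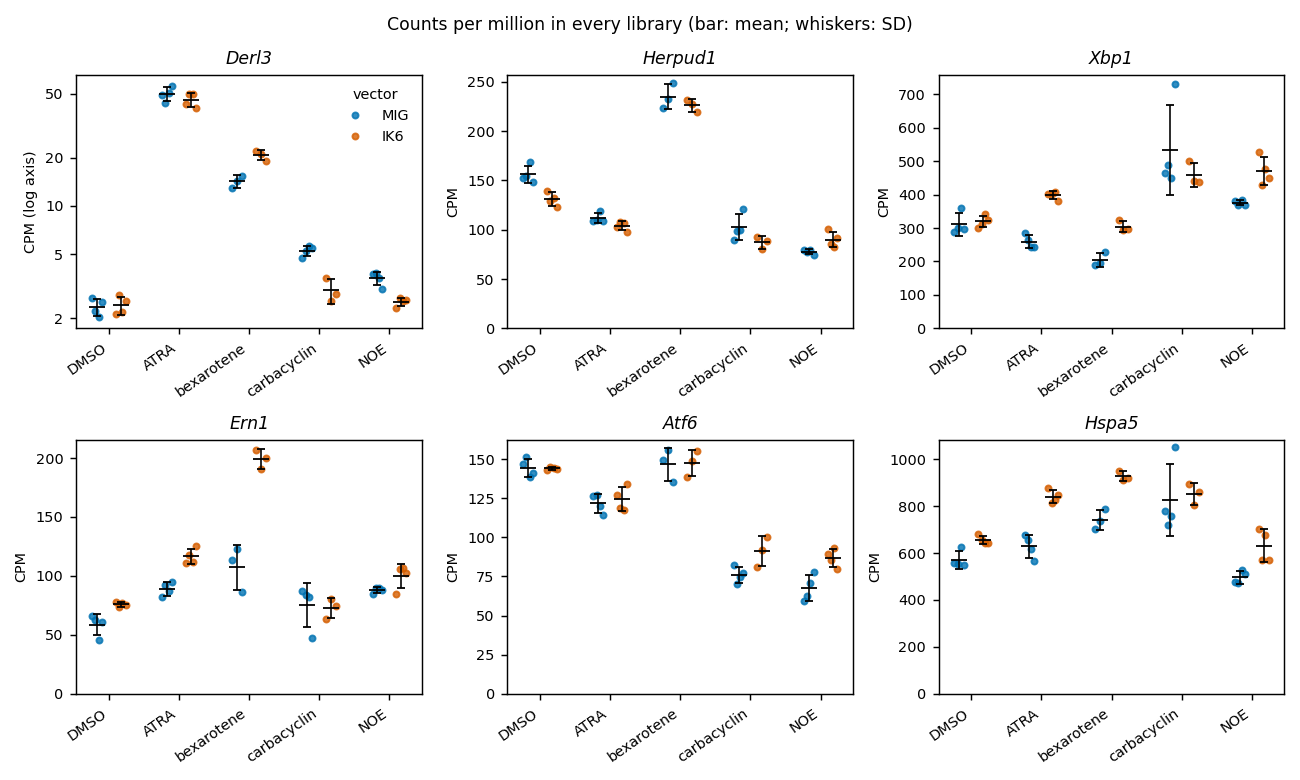
CPM of Derl3 (log axis), Herpud1, Xbp1, Ern1, Atf6 and Hspa5 in every library by treatment, with MIG in blue and IK6 in orange; points are libraries, bars are means and whiskers are SDs. Derl3 is highest with ATRA, Herpud1 and Ern1 are highest with bexarotene in both vectors, and Atf6 is lowest with carbacyclin and NOE; 1 MIG library with carbacyclin stands apart for Xbp1 (731 CPM) and Hspa5 (1054 CPM).

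Set directly against each other at the same 1 µM, bexarotene gave higher levels than ATRA for most of the members that differed. In MIG 8 members were higher and 2 lower with bexarotene (all genes 12.6% and 11%), and in IK6 14 were higher and 2 lower (all genes 11.7% and 10.2%). Adjustment was over all tested genes of each comparison, and 72 differences were examined, 36 in each vector. Of these calls 5 of 10 and 12 of 16 held under every alternative. Without the 3 libraries of high ribosomal protein share 9 were higher and 2 lower in MIG, and the calls for Hyou1 and Sec61a1 were lost (adjusted p = 0.0659 and 0.139). The greatest differences in both vectors were those of Herpud1, 1.07 ± 0.074 in MIG and 1.12 ± 0.074 in IK6 in favour of bexarotene (adjusted p = 2.15e-13 and 1.07e-13), and of Derl3. Derl3 was lower with bexarotene (log2 difference -1.81 ± 0.10 and -1.14 ± 0.10), 3.49-fold less in MIG and 2.21-fold less in IK6 (adjusted p = 2.36e-15 and 1.16e-10). Both encode membrane proteins of ER-associated degradation, and they moved in opposite directions between the compounds. Sel1l was higher with bexarotene by 0.56 ± 0.068 and 0.75 ± 0.067, and Dnajb9 by 0.51 ± 0.084 and 0.51 ± 0.082. In IK6, Sec24d was higher by 0.97 ± 0.095, Ern1 by 0.77 ± 0.13, Creb3l2 by 0.46 ± 0.094, Edem1 by 0.44 ± 0.062, Sec61a1 by 0.38 ± 0.065 and Derl1 by 0.36 ± 0.068. Xbp1 was lower with bexarotene (log2 difference -0.34 in MIG and -0.39 in IK6). These calls were lost without MIG ATRA replicate 1 (0.056), MIG bexarotene replicate 1 (0.131) or MIG bexarotene replicate 2 (0.1) in MIG, and without IK6 bexarotene replicate 2 (0.053) in IK6 (adjusted p in parentheses). Several members did not pass, with narrow intervals: the interval for Dnajb11 was -0.094 to 0.17 in MIG and -0.094 to 0.17 in IK6, that for Calr -0.088 to 0.24 and -0.16 to 0.16, and that for Pdia4 -0.15 to 0.19 and -0.20 to 0.14 (95% intervals). For Pdia5, Sdf2l1, Sec61b and Ssr2 the intervals were wider, down to -0.66 and up to 0.64. Doses other than 1 µM were not analysed here.

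**Figure D4:**
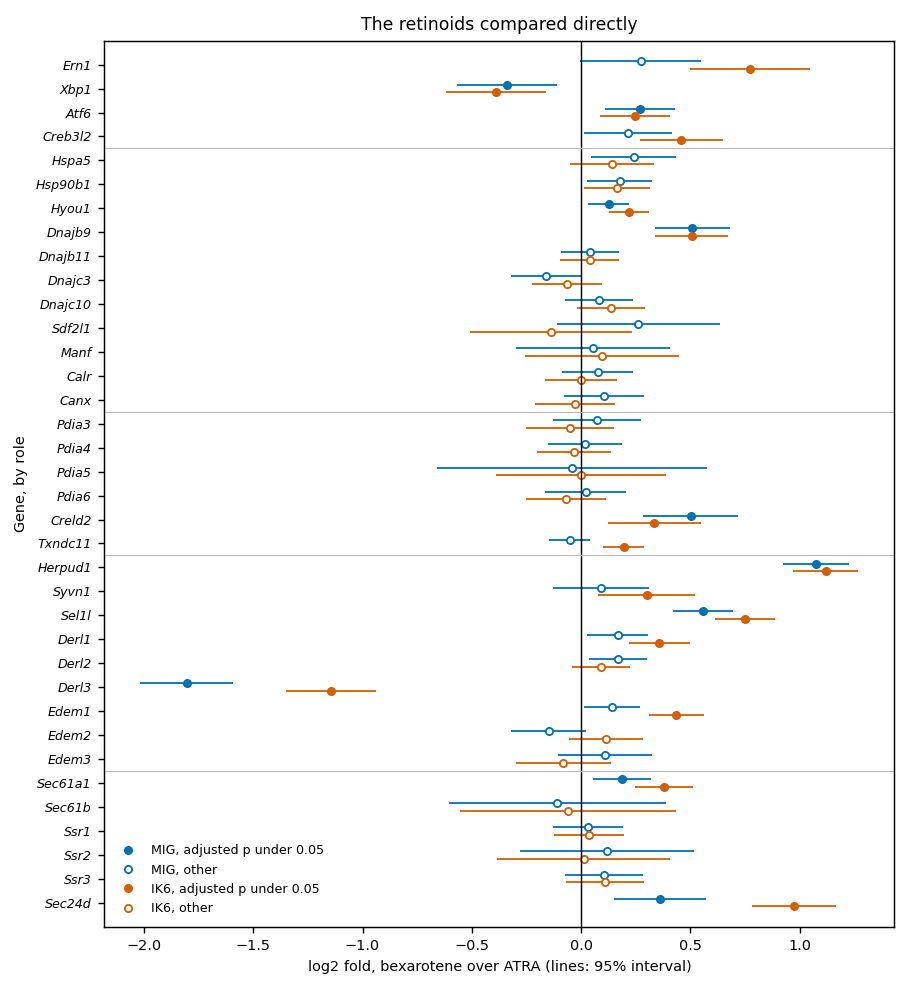
Difference of bexarotene from ATRA for each of the 36 genes, as a log2 fold with its 95% interval, in MIG (blue) and IK6 (orange); filled points passed the adjusted threshold of 0.05. Herpud1, Sel1l and Dnajb9 lie to the right in both vectors, Derl3 lies far to the left, and most chaperones and isomerases straddle 0.

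Listed genes of PERK and ATF4 signalling, which are not part of the 36, also differed between the retinoids. Whether PERK itself was more or less active was not tested. Of 16 genes of PERK and ATF4 signalling, all tested, 1 rose and 13 fell with ATRA in MIG (all genes 20.6% and 21.2%) and 2 rose and 10 fell in IK6 (22.7% and 20.9%). With bexarotene 9 rose and 2 fell in MIG (all genes 19.9% and 18.2%), and 12 rose and 2 fell in IK6 (22.3% and 19.4%). Compared directly, 14 were higher with bexarotene in MIG (all genes 12.6%) and 12 in IK6 (11.7%), and none were lower (11% and 10.2%). The median difference of the list was 1.55 log2 units in MIG and 1.10 in IK6. Ddit3 (CHOP, a stress transcription factor) changed by -0.52 with ATRA and 1.80 with bexarotene in MIG, and by -0.39 and 2.07 in IK6. Trib3, a target of CHOP, changed by -1.43 and 2.05 in MIG and by -0.91 and 2.26 in IK6. Atf5 changed by -0.53 and 2.89 in MIG and by -0.78 and 2.52 in IK6. Atf4 changed by -0.35 with ATRA and 0.47 with bexarotene in MIG, and by 0.65 with bexarotene in IK6. Eif2ak3, which encodes PERK, rose by 0.25 with ATRA in MIG and 0.16 in IK6, and its 0.12 and 0.078 with bexarotene did not pass. With carbacyclin 2 rose and 13 fell in MIG (all genes 24.7% and 23.3%) and 2 rose and 9 fell in IK6 (20.8% and 18.8%). With NOE none rose and 12 fell in MIG (all genes 22.6% and 22.3%), and 4 rose and 8 fell in IK6 (22.8% and 18.2%).

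With carbacyclin in MIG 20 members rose and 5 fell (all genes 24.7% and 23.3%), and in IK6 9 rose and 4 fell (all genes 20.8% and 18.8%). By role, in MIG 7 of 11 chaperones rose and none fell, all 6 isomerases and relatives rose, and 4 of 9 degradation genes rose and 2 fell. The median log2 change was 0.17 in MIG and 0.09 in IK6. Of 25 calls in MIG 12 held under every alternative, and 12 of 13 in IK6. Without the 3 libraries of high ribosomal protein share 17 rose and 5 fell in MIG, and the calls for Hsp90b1, Pdia4, Edem2 and Sec24d were lost (adjusted p = 0.193, 0.0582, 0.101 and 0.179). In IK6 the call for Derl3 was lost (adjusted p = 0.0556). In MIG carbacyclin replicate 4, of high ribosomal protein share, 8 of the 36 genes stood apart from the other 3 libraries. In IK6 3 of 11 chaperones and 3 of the 6 isomerases and relatives rose, and none of either fell. Of the 9 degradation genes 1 rose and 2 fell there. Creld2 read 28.8, 31.2, 31.1 and 40.0 CPM with carbacyclin in MIG and 36.6, 30.7 and 30.1 CPM in IK6, above all DMSO libraries of each line, and rose by 1.11 ± 0.10 and 0.62 ± 0.11 (adjusted p = 4.7e-11 and 1.32e-05). Pdia3 rose by 0.49 and 0.38, Pdia5 by 1.26 and 0.94, Calr by 0.58 and 0.41, and Dnajb11 by 0.52 and 0.33. Hspa5 read 778, 721, 758 and 1054 CPM in MIG and 896, 804 and 859.9 CPM in IK6, in each case above every DMSO library. It rose by 0.53 ± 0.088 and 0.38 ± 0.095 (adjusted p = 6.27e-06 and 0.00157). Hsp90b1 (0.17 in MIG) passed, but not without MIG DMSO replicate 3 (0.0927), MIG DMSO replicate 4 (0.0702), MIG carbacyclin replicate 1 (0.0888) or MIG carbacyclin replicate 4 (0.0676) (adjusted p in parentheses), and its 0.13 in IK6 did not pass. Sdf2l1 passed in MIG (0.52), though its value was 0.28 without MIG carbacyclin replicate 4 (adjusted p = 0.122).

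Xbp1 rose and Atf6 fell with both lipids. With carbacyclin Xbp1 read 464, 488, 449 and 731 CPM in MIG and 501, 441 and 437 CPM in IK6, above all DMSO libraries. The rises were 0.78 ± 0.10 and 0.52 ± 0.11 (adjusted p = 1.51e-07 and 0.000265). With NOE it read 380.1, 370.0, 385 and 369.5 CPM in MIG and 526, 429, 476 and 448 CPM in IK6. It rose by 0.56 ± 0.10 in IK6 (adjusted p = 4.13e-05), and its 0.28 ± 0.10 in MIG passed (adjusted p = 0.0286), but not without MIG DMSO replicate 1 (0.0509). Atf6 read 147, 151, 138 and 141 CPM in MIG with DMSO, 82.3, 70.2, 74.4 and 77.2 CPM with carbacyclin and 59.0, 62.6, 71.1 and 77.5 CPM with NOE. Every treated library lay far below every DMSO library. The fall was -0.93 ± 0.073 with carbacyclin and -1.10 ± 0.073 with NOE (adjusted p = 1.91e-12 and 2.65e-14). In IK6 it read 143, 145, 144 and 144 CPM with DMSO, 81.2, 91.8 and 100.1 CPM with carbacyclin and 89.6, 85.2, 93.0 and 79.7 CPM with NOE, again well below DMSO. The fall there was -0.66 ± 0.079 and -0.73 ± 0.073 (adjusted p = 3.12e-08 and 4.49e-10). Ern1 rose with NOE by 0.58 in MIG and 0.40 in IK6. With carbacyclin its 0.35 in MIG passed, but not without MIG DMSO replicate 3 (0.116), MIG carbacyclin replicate 1 (0.0851), MIG carbacyclin replicate 2 (0.0802) or MIG carbacyclin replicate 3 (0.0685) (adjusted p in parentheses), and was 0.53 without MIG carbacyclin replicate 4. Its -0.062 in IK6 did not pass. Creb3l2 rose with NOE by 0.82 ± 0.092 and 1.16 ± 0.088, to 16.2, 17.0, 17.1 and 16.8 CPM in MIG and 39.9, 44.8, 42.4 and 41.3 CPM in IK6, and did not pass with carbacyclin (-0.011 and 0.13).

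NOE lowered more of the 36 genes than it raised. In MIG 4 rose and 10 fell (all genes 22.6% and 22.3%), and in IK6 5 rose and 8 fell (all genes 22.8% and 18.2%), so the share that fell was close to the background while the share that rose was below it. The median log2 change was -0.11 in MIG and -0.037 in IK6. Of 14 calls in MIG 10 held under every alternative, and 11 of 13 in IK6. Without those 3 libraries 4 rose and 10 fell in MIG. Atf6, given above, fell most, and Herpud1 next: its NOE libraries read 79.3, 77.9, 79.6 and 74.8 CPM in MIG and 100.3, 85.6, 82.6 and 91.6 CPM in IK6, with no overlap with DMSO. The change was -1.0 ± 0.070 and -0.54 ± 0.069 (adjusted p = 6.48e-14 and 7.93e-08). With carbacyclin Herpud1 fell as well, with log2 changes of -0.61 and -0.58. With NOE Hyou1 changed by -0.41 and -0.25, and Syvn1 by -0.39 and -0.37, all past the test. Ssr1, Ssr3 and Canx fell in MIG by 0.58, 0.28 and 0.29 on the log2 scale, and Ssr3 and Canx did not pass in IK6 (-0.0080 and -0.11). Edem1 fell in IK6 by 0.30 with NOE and 0.22 with carbacyclin. In MIG its -0.15 with NOE was lost without MIG DMSO replicate 1 (0.0926), MIG DMSO replicate 2 (0.141), MIG DMSO replicate 4 (0.139), MIG NOE replicate 1 (0.244) or MIG NOE replicate 2 (0.15), and was -0.089 without MIG NOE replicate 1. Its -0.19 with carbacyclin in MIG was lost without MIG carbacyclin replicate 4 (0.0554) (adjusted p in parentheses). Hspa5 did not pass with NOE (-0.20, adjusted p = 0.0604, and -0.057). Derl3 rose in MIG by 1.16 ± 0.11 with carbacyclin and 0.60 ± 0.12 with NOE, far less than with the retinoids. In IK6 its 0.082 with NOE did not pass. Its 0.32 with carbacyclin was lost without IK6 DMSO replicate 1 (0.129), IK6 DMSO replicate 3 (0.125), IK6 carbacyclin replicate 1 (0.443) or IK6 carbacyclin replicate 3 (0.0522) (adjusted p in parentheses), with values down to 0.16. Dnajb9 and Sec24d rose with NOE in IK6 (0.32 and 0.34), and Sec24d fell there with carbacyclin (-0.47).

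Between the vectors, more of the 36 genes were higher than lower in IK6 in each treatment. In DMSO 8 were higher and 1 lower (all genes 13.3% and 12.7%). With ATRA 20 were higher and 1 lower (all genes 20.9% and 20%), and with bexarotene 18 were higher and none lower (all genes 11.1% and 9.95%). With carbacyclin 6 were higher and 4 lower (all genes 17.3% and 14.8%), close to the background, and with NOE 18 were higher and 1 lower (all genes 18.9% and 13.7%). The medians of the log2 difference were 0.11, 0.29, 0.32, -0.010 and 0.26 in that order. In DMSO the count rose from 9 to 18 (16 higher and 2 lower) without the 3 libraries of high ribosomal protein share. With carbacyclin it rose from 10 to 16 (12 higher and 4 lower), and with bexarotene 24 were then higher and 0 lower. Calls that held under every alternative were 7 of 9, 18 of 21, 15 of 18, 4 of 10 and 13 of 19. Higher in IK6 in all 5 treatments were Creb3l2, Pdia5, Sec24d and Ssr3; 24 members were higher in at least 1 treatment and lower in none, 3 were called in both directions and 8 in no treatment. The single gene lower in at least 1 treatment and higher in none was Syvn1. Matching counts across treatments over all tested genes are not given here, so these joint counts list the members and are not set against a background.

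**Figure D5:**
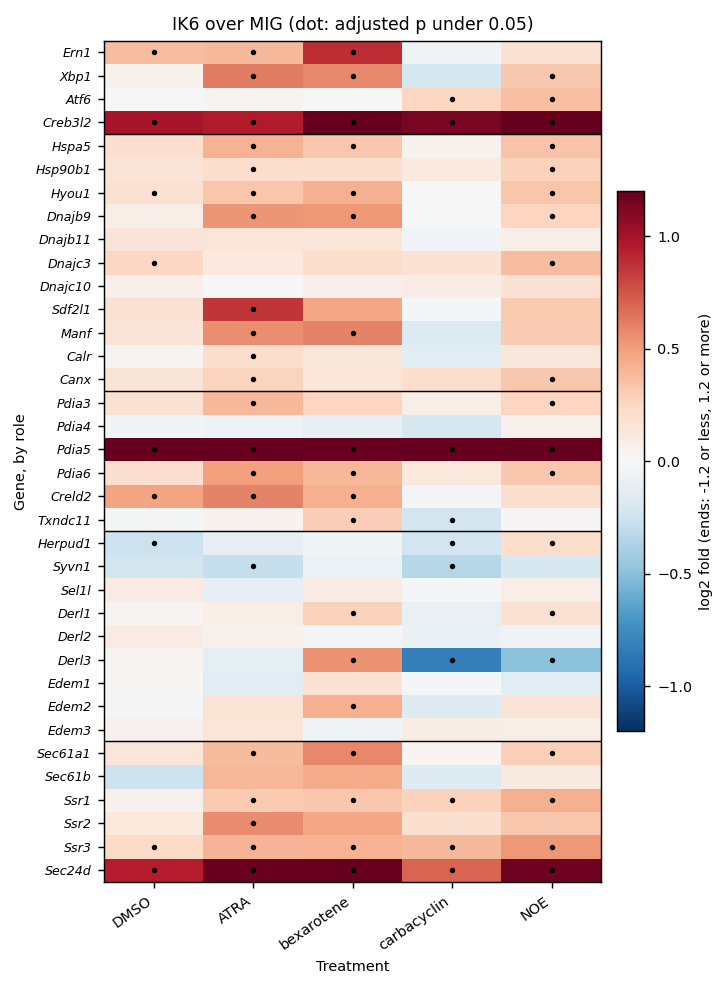
Log2 fold of IK6 over MIG for each of the 36 genes (rows, by role) in the 5 treatments (columns); a dot marks an adjusted p under 0.05. Creb3l2, Pdia5 and Sec24d are red throughout, Derl3 turns blue with carbacyclin and NOE, and the carbacyclin column holds fewer dots than those of the other compounds.

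Creb3l2 and Sec24d were higher in IK6 in every treatment. Creb3l2 read 8.73, 9.55, 8.97 and 10.7 CPM in MIG with DMSO and 18.7, 18.8, 20.4 and 17.9 CPM in IK6. The lines did not overlap in any treatment, and the log2 difference ran from 0.95 ± 0.091 with ATRA to 1.33 ± 0.089 with NOE. Sec24d read 6.42, 5.87, 7.25 and 5.59 CPM in MIG with DMSO, against 9.97 to 13.8 CPM in IK6. Its difference was 0.94 ± 0.10 in DMSO, 1.18 ± 0.095 with ATRA, 1.80 ± 0.11 with bexarotene, 0.70 ± 0.10 with carbacyclin and 1.17 ± 0.093 with NOE, each past the test. Pdia5 was the most unequal by ratio and by far the lowest in level: it read 0.128, 0.275, 0.196 and 0.271 CPM in MIG with DMSO and 0.885, 1.19, 0.949 and 0.806 CPM in IK6. No library of MIG reached the level of IK6. Its log2 difference ran from 1.68 ± 0.23 with NOE to 2.27 ± 0.25 with bexarotene. Ssr3 was higher by 0.41, 0.41, 0.38 and 0.52 with ATRA, bexarotene, carbacyclin and NOE, and by 0.24 in DMSO, a call lost without IK6 DMSO replicate 2 (0.0568) or IK6 DMSO replicate 4 (0.0702). Hyou1 was higher in every treatment but carbacyclin, by 0.18 in DMSO and by up to 0.42 with bexarotene.

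Of the 11 chaperones 2 were higher in IK6 in DMSO, 8 with ATRA, 4 with bexarotene, none with carbacyclin and 6 with NOE, where 13.3%, 20.9%, 11.1%, 17.3% and 18.9% of all genes were. Hspa5 read 683, 655, 643 and 643 CPM in IK6 with DMSO and 878, 814, 825 and 848 CPM with ATRA. The difference from MIG was 0.20 ± 0.088 in DMSO (adjusted p = 0.1) and 0.42 ± 0.088 with ATRA (adjusted p = 0.000221). It passed in DMSO without the 3 libraries of high ribosomal protein share (0.26, adjusted p = 0.00313). With bexarotene it was 0.32, a call lost without MIG bexarotene replicate 1 (0.0978), MIG bexarotene replicate 2 (0.0627) or IK6 bexarotene replicate 1 (0.0727) (adjusted p in parentheses), and with NOE 0.34 (adjusted p = 0.0024). The difference of vectors in the response of Hspa5 did not itself pass for any compound (interaction 0.22 ± 0.12 for ATRA, adjusted p = 0.311). Pdia6 was higher in IK6 by 0.49 with ATRA, 0.40 with bexarotene and 0.32 with NOE. Sdf2l1 was higher with ATRA by 0.86 ± 0.17 (adjusted p = 0.000107). Xbp1 did not pass in DMSO (0.041 ± 0.10, 95% interval -0.17 to 0.25), and was higher in IK6 by 0.62 ± 0.10 with ATRA and 0.58 ± 0.12 with bexarotene. Its 0.32 with NOE was lost without MIG NOE replicate 2 (0.0522) or IK6 NOE replicate 1 (0.116), and its -0.21 with carbacyclin did not pass. Ern1 was higher in IK6 by 0.39 with ATRA and 0.89 with bexarotene, and its 0.37 in DMSO was lost without MIG DMSO replicate 3 (0.147), IK6 DMSO replicate 1 (0.0625) or IK6 DMSO replicate 3 (0.0585) (adjusted p in parentheses). Atf6 was higher in IK6 by 0.36 with NOE, and its 0.26 with carbacyclin was lost without IK6 carbacyclin replicate 3 (adjusted p = 0.115).

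Of the 9 degradation genes 1, 1, 0, 3 and 1 were lower in IK6 in DMSO, ATRA, bexarotene, carbacyclin and NOE. In the same order 0, 0, 3, 0 and 2 were higher. Of all genes 12.7%, 20%, 9.95%, 14.8% and 13.7% were lower and 13.3%, 20.9%, 11.1%, 17.3% and 18.9% higher. Derl1 was higher in IK6 in 2 treatments and Edem2 in 1, and neither was lower in any. Herpud1 was lower in DMSO (-0.26, adjusted p = 0.00471). With carbacyclin its -0.23 was lost without MIG carbacyclin replicate 4 (0.0548) or IK6 carbacyclin replicate 2 (0.122), and without the 3 libraries of high ribosomal protein share it was -0.14 (adjusted p = 0.0903). With NOE it was higher in IK6 (0.21), a call lost without MIG NOE replicate 1 (0.0536), MIG NOE replicate 2 (0.0697), MIG NOE replicate 3 (0.0582), MIG NOE replicate 4 (0.053) or IK6 NOE replicate 1 (0.228) (adjusted p in parentheses), and 0.12 without the last of these. Derl3 did not differ past the test in DMSO (0.027) or with ATRA (-0.12), was higher in IK6 with bexarotene (0.54 ± 0.11), and lower with carbacyclin (-0.82 ± 0.12) and NOE (-0.49 ± 0.11). Syvn1 was lower with ATRA (-0.28) and with carbacyclin (-0.34). These calls were lost without MIG ATRA replicate 3 (0.0896), MIG ATRA replicate 4 (0.0879), IK6 ATRA replicate 1 (0.0647) or IK6 ATRA replicate 4 (0.0701) in the first case, and without MIG carbacyclin replicate 2 (0.0627), MIG carbacyclin replicate 3 (0.0706) or IK6 carbacyclin replicate 1 (0.0659) in the second (adjusted p in parentheses).

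The difference between the vectors in their response, tested as an interaction, passed for few members. For ATRA 2 were more positive in IK6 and none more negative (all genes 5.34% and 4.44%): Xbp1 (0.58 ± 0.15, adjusted p = 0.00765) and Dnajb9 (0.45 ± 0.11, adjusted p = 0.00583), both held under every alternative. Xbp1 thus had a rise with ATRA in IK6 and a value below 0 in MIG. For bexarotene 7 were more positive and none more negative (all genes 3.13% and 2.56%). Sec24d (0.86 ± 0.14), Sec61a1 (0.43 ± 0.093) and Txndc11 (0.31 ± 0.066) held throughout. Dnajb9 (0.45) was lost without MIG bexarotene replicate 1 (0.0673) or IK6 bexarotene replicate 1 (0.112), Edem2 (0.44) without MIG bexarotene replicate 1 (0.0865), IK6 bexarotene replicate 1 (0.074) or IK6 bexarotene replicate 2 (0.058), and Hyou1 (0.24) without MIG bexarotene replicate 1 (0.0527), MIG bexarotene replicate 3 (0.0526) or IK6 bexarotene replicate 3 (0.0612) (adjusted p in parentheses). Xbp1 (0.53, adjusted p = 0.0382) was lost without any 1 of 9 of the 14 libraries, that is MIG DMSO replicate 3 (0.0668), MIG bexarotene replicate 1 (0.13), MIG bexarotene replicate 2 (0.104), IK6 DMSO replicate 1 (0.0777), IK6 DMSO replicate 2 (0.0671), IK6 DMSO replicate 4 (0.0561), IK6 bexarotene replicate 1 (0.125), IK6 bexarotene replicate 2 (0.0545) or IK6 bexarotene replicate 3 (0.0573). For carbacyclin none were more positive and 3 more negative in IK6 (all genes 5.66% and 3.17%). Derl3 (-0.85 ± 0.17, adjusted p = 0.000705) held throughout. Creld2 (-0.49) was lost without MIG DMSO replicate 1 (0.0532), MIG DMSO replicate 4 (0.0644), IK6 DMSO replicate 4 (0.0588), IK6 carbacyclin replicate 2 (0.0881) or IK6 carbacyclin replicate 3 (0.0945), and Txndc11 (-0.21) without MIG DMSO replicate 3 (0.073), MIG carbacyclin replicate 2 (0.0753), MIG carbacyclin replicate 3 (0.0721), IK6 DMSO replicate 2 (0.0644), IK6 DMSO replicate 3 (0.0575), IK6 DMSO replicate 4 (0.0523), IK6 carbacyclin replicate 1 (0.0908) or IK6 carbacyclin replicate 3 (0.0868). For NOE 3 were more positive and 1 more negative (all genes 6.62% and 2.2%). Without the 3 libraries of high ribosomal protein share 3, 8, 5 and 4 members passed for ATRA, bexarotene, carbacyclin and NOE, and the calls for Hyou1 with bexarotene and Derl3 with NOE were lost (adjusted p = 0.061 and 0.0627). Herpud1 (0.46 ± 0.10, adjusted p = 0.00133), which fell less in IK6, held throughout. Atf6 (0.37) was lost without MIG DMSO replicate 1 (0.0622), MIG DMSO replicate 2 (0.0867), MIG NOE replicate 1 (0.104), MIG NOE replicate 2 (0.0943) or IK6 NOE replicate 1 (0.0826), Ssr1 (0.38) without MIG DMSO replicate 2 (0.0545), MIG NOE replicate 1 (0.0861), MIG NOE replicate 2 (0.0739) or IK6 NOE replicate 1 (0.0899), and Derl3 (-0.52) without MIG DMSO replicate 2 (0.0679), MIG DMSO replicate 3 (0.0943), MIG NOE replicate 1 (0.0577), MIG NOE replicate 2 (0.0664), IK6 DMSO replicate 2 (0.111), IK6 DMSO replicate 4 (0.0885), IK6 NOE replicate 1 (0.0592), IK6 NOE replicate 3 (0.0538) or IK6 NOE replicate 4 (0.0579). Adjusted p-values without a library stand in parentheses.

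The 36 genes did not vary as 1 block. Over the 37 libraries the Pearson correlation of log2 CPM had a median of 0.39 over their 630 pairs, 47 pairs were over 0.8 and 71 below 0, as a description of libraries that share treatments and scaling. Hspa5 was closest to Pdia3 (0.93) and Creld2 (0.92) among the members. The most negative partners of Xbp1 were Edem1 (-0.75), Syvn1 (-0.73), Atf6 (-0.68) and Herpud1 (-0.64). After the group means were taken away these were -0.44, -0.80, -0.12 and 0.70, so that the sign for Herpud1 turned. The 3 libraries of high ribosomal protein share were each the highest of their group for Xbp1 and Herpud1, and the lowest for Syvn1. The within-group values of these pairs are not given without those libraries. Within groups the median over all pairs was 0.18, with 69 pairs over 0.8 and 252 below 0, and it was 0.10 without the 3 libraries of high ribosomal protein share. Among all tested genes, those most like Hspa5 were Fam76a (0.96), Mfsd1 (0.95), Zmpste24 (0.94), Pdia3 and Creld2. Those most like Xbp1 were Gna15 (0.94), Prnp (0.93), Ifitm2 (0.92), Ifitm1 (0.91) and Sema7a (0.90). By promoter element, 5 of the 9 members with ERSE rose with bexarotene in MIG and none fell, all 4 with ERSE-II or UPRE rose, and of the 17 with none of the 3 elements 7 rose and 2 fell (all genes 19.9% up and 18.2% down). With NOE in MIG 1 of the 9 with ERSE rose and 4 fell, none of the 4 with ERSE-II or UPRE rose and 1 fell, and of the 17 without an element 3 rose and 3 fell (all genes 22.6% and 22.3%).

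Other genes of the same pathways, none of them among the 36, moved to differing extents. They are described here for bexarotene and NOE only, and their counts with ATRA and carbacyclin are not given. Over all tested genes the shares that rose and fell were 19.9% and 18.2% with bexarotene in MIG, 22.3% and 19.4% with bexarotene in IK6, 22.6% and 22.3% with NOE in MIG, and 22.8% and 18.2% with NOE in IK6. Of 18 further degradation genes, 10 rose and none fell with bexarotene in MIG, and 8 rose and none fell in IK6. With NOE 3 of them rose and 5 fell in MIG, and 2 rose and 2 fell in IK6. Of 12 further regulators of the response, 5 rose and 1 fell with bexarotene in MIG, and 9 rose and 1 fell in IK6. With NOE 3 of these rose and 3 fell in MIG, and 3 rose and 1 fell in IK6. Of 23 further genes of oxidative folding and glycosylation, 2 rose and 6 fell with bexarotene in MIG, whereas 6 rose and 3 fell in IK6. With NOE 2 rose and 14 fell in MIG, and 4 rose and 3 fell in IK6. Of 29 further genes of translocation and vesicle export, 5 rose and 4 fell with bexarotene in MIG, and 10 rose and 3 fell in IK6. With NOE 2 rose and 10 fell in MIG, and 3 rose and 4 fell in IK6. Of 15 heat shock genes whose proteins act outside the ER, 4 rose and 3 fell with bexarotene in MIG, and 4 rose and 5 fell in IK6. With NOE 2 rose and 4 fell in MIG, and none rose and 7 fell in IK6. Of 10 plasma cell and secretory B cell genes, 3 rose and 2 fell with bexarotene in MIG, and 4 rose and 4 fell in IK6. With NOE 2 rose and 7 fell in MIG, and none rose and 8 fell in IK6.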

How the data were processed

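RNA was extracted with Trizol and libraries were made by the TruSeq RNA v2 protocol, per the labels' protocols. The deposited files hold raw counts of reads per gene; BWA 0.5.9, HTSeq and the mm9 build are named in the submitters' processing notes. Strandedness, the counting mode and the annotation are not stated in those sources. Without strand, reads of overlapping genes cannot be told apart; 11 members share exonic bases with another annotated gene, 2 of them (Hsp90b1 and Ssr2) at 10% or more, in each case with a pseudogene.

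Counts were analysed in R 4.3.3 with edgeR 4.0.16. Genes with low counts were removed by group (minimum count 10, minimum total 15). Library sizes received TMM scaling, and a robust quasi-likelihood model of 10 groups was fitted with 27 residual degrees of freedom. Tests were two-sided, with Benjamini-Hochberg adjustment over 15699 genes and a threshold of 0.05. The fit was tested on simulated data. Total counts ran from 16478899 to 80388667, and no 2 replicates agreed within sampling noise. Promoters came from RefSeq (GRCm38.p6); the files' own build was not used for sequence.

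The members and all gene lists were chosen with earlier results of these data known. All 36 members are accounted for; the sensors, 8 leading targets, the 6 called members that changed most in a comparison and the members of a described role class could be named. Genes outside the 36 are named from the lists (the 4 that changed most, with Eif2ak3, Atf4 and Ddit3) or by likeness to Hspa5 and Xbp1. Alternatives were DESeq2 1.42.0, other scalings and filters, the compared groups alone, ribosomal protein share as a covariate, the replicate number as a block and each library left out. Leaving out the 3 libraries of high ribosomal protein share was chosen after seeing the data. The labels share replicate numbers across groups. Of 15 comparisons checked, same-numbered libraries deviated together in every pair in 1, bexarotene against DMSO in MIG (correlations over 0.1); over all 15 the correlations ran from -0.46 to 0.62.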

Additional observations from a re-analysis of the deposited data

Results flagged for a closer look

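In groups of 4 libraries, 27 of 252 sets of values (10.7%) had 1 library far from the other 3 by Dixon's criterion. Chance gives about 1 in 20 for independent sets, but these sets come from the same libraries and are not independent. Most of the 27 lay in 2 libraries. In MIG with DMSO the far library was replicate 3, of high ribosomal protein share, for 9 genes. It was the highest for Hspa5 (628 CPM), Dnajc10 (101 CPM), Sdf2l1 (57.8 CPM), Manf (129.5 CPM), Edem2 (41.5 CPM), Sec61a1 (164 CPM), Sec61b (147 CPM) and Ssr2 (125 CPM), and the lowest for Dnajc3 (129.9 CPM). In MIG with carbacyclin it was replicate 4, also of high ribosomal protein share, for 8 genes. That library was the highest for Xbp1 (731 CPM), Dnajb9 (25.5 CPM), Dnajb11 (148 CPM), Calr (935 CPM), Pdia6 (401 CPM), Derl1 (113 CPM) and Ssr2 (171 CPM), and the lowest for Ern1 (47.5 CPM).

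In MIG with ATRA, Herpud1 was highest in replicate 3 (119 CPM) and Edem3 in replicate 2 (70.8 CPM). In MIG with NOE, Txndc11 was lowest in replicate 1 (52.8 CPM). In IK6 with DMSO, replicate 1 was the lowest for Dnajc3 (157 CPM), Manf (99.4 CPM) and Sec61b (76.4 CPM). In IK6 with NOE, replicate 1 was lowest for Ern1 (84.8 CPM) and highest for Pdia6 (336 CPM), replicate 3 highest for Derl2 (54.6 CPM) and replicate 4 highest for Sec24d (15.9 CPM).

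The response to a compound differed between the vectors, by the interaction term of edgeR's quasi-likelihood fit, for 16 values, each given as a log2 difference of IK6 from MIG. Those that held under every alternative tried were Xbp1 and Dnajb9 for ATRA, Txndc11, Sec61a1 and Sec24d for bexarotene, Derl3 for carbacyclin and Herpud1 for NOE. The members more positive in IK6 were 5.56% of the 36 for ATRA, against 5.34% of all genes, and 19.4% for bexarotene, against 3.13%. For carbacyclin 8.33% were more negative, against 3.17%. For NOE 8.33% were more positive and 2.78% more negative, against 6.62% and 2.2%. For ATRA the values were Xbp1 (0.58) and Dnajb9 (0.45). For bexarotene they were Xbp1 (0.53), Hyou1 (0.24), Dnajb9 (0.45), Txndc11 (0.31), Edem2 (0.44), Sec61a1 (0.43) and Sec24d (0.86). For carbacyclin they were Creld2 (-0.49), Txndc11 (-0.21) and Derl3 (-0.85). For NOE they were Atf6 (0.37), Herpud1 (0.46), Derl3 (-0.52) and Ssr1 (0.38).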

How the results depend on the processing

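Of 276 member calls, DESeq2 lost 6, other scalings 7 (relative log expression) and 8 (upper quartile), no filter on low counts 20, a stricter filter 4 and the compared groups alone 37 of 275. Leaving out single libraries lost 232 of 2190. The replicate block lost 8 and gained none; in bexarotene against DMSO in MIG, where the numbers pair, it gave 20 calls in place of 21. With ribosomal protein share as covariate 107 were gained and 3 values reversed: Sdf2l1 in IK6 against MIG with carbacyclin (0.15), and Sec61b in MIG with ATRA (0.22) and NOE (0.20). The cause of these changes was not tested.

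Counts of members called moved by over 1.5 times as follows. With the covariate IK6 against MIG in DMSO gave 19 in place of 9, carbacyclin in IK6 21 and NOE in IK6 20 in place of 13 each, bexarotene against ATRA in MIG 20 in place of 10, and the interactions 5 for ATRA, 11 for carbacyclin and 7 for NOE in place of 2, 3 and 4. Without the 3 libraries of high ribosomal protein share, IK6 against MIG gave 18 in DMSO and 16 with carbacyclin (in place of 10), and the carbacyclin interaction 5. With the compared groups alone, carbacyclin gave 12 in MIG in place of 25, 20 in IK6 and 4 for IK6 against MIG, and the interactions 7 for ATRA and 1 for carbacyclin. With no filter the bexarotene interaction gave 4 in place of 7.

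Leaving out 1 library gave 3 to 8 for the bexarotene interaction (3 without MIG bexarotene replicate 1, 4 without IK6 bexarotene replicate 1) and 1 to 5 for carbacyclin (5 without MIG carbacyclin replicate 4, 1 without IK6 carbacyclin replicate 3). It gave 1 to 4 for NOE (1 without MIG DMSO replicate 2, MIG NOE replicate 1 or 2, or IK6 NOE replicate 1). Bexarotene against ATRA in MIG gave 5 to 12 (6 without MIG ATRA replicate 1, 5 without MIG bexarotene replicate 2).

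The summed share of counts on TMM-scaled libraries was 0.599% in MIG with DMSO, 0.703% with carbacyclin and 0.666% with bexarotene, and 0.646% in IK6 with DMSO and 0.801% with bexarotene. Without Hspa5 it was 0.519, 0.539, 0.596, 0.606 and 0.479% in MIG with DMSO, ATRA, carbacyclin, bexarotene and NOE, and 0.596, 0.658, 0.634, 0.745 and 0.570% in IK6. Depth limits Pdia5 most, with 30 counts over the MIG DMSO libraries.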
